A study of Rattus norvegicus with 12 samples.

Results

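The sterol synthesis and SREBP2 pathway was followed through 31 genes in cultured neonatal rat cardiac fibroblasts after depletion of Yap, Wwtr1 or both. The genes were chosen by symbol, from their known roles in making cholesterol and in regulating that process, and all 31 were found among the 12271 genes of the expression table. They comprised 8 regulators, 8 genes of the mevalonate part, 3 of the squalene part, 8 of the late sterol part, 2 of branches that leave the pathway for other isoprenoids, and 2 that bind or carry sterols. All 31 passed the filter on low values, a mean of at least 10 normalised read counts over the 12 libraries, which 11871 genes passed.

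Cells build cholesterol from acetyl-CoA through mevalonate, farnesyl diphosphate, squalene and lanosterol. The transcription factor SREBP2, encoded by Srebf2, switches on most genes of this route. It is made as a membrane protein of the endoplasmic reticulum and is carried to the Golgi by Scap when sterols are low, where the proteases encoded by Mbtps1 and Mbtps2 release its active part, while Insig proteins hold Scap back when sterols are plentiful. Farnesyl diphosphate from the mevalonate part also feeds protein prenylation and dolichol synthesis. The Hippo kinases restrain Yap (encoded by Yap1) and its relative Wwtr1, known as Taz, which are transcriptional coactivators that promote fibroblast activation after injury.

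Cardiac fibroblasts came from heart ventricles of Sprague Dawley rats at postnatal day 2 and were kept in DMEM with FBS. Every group carried a pair of siRNAs per target at 25 nM each and had 3 libraries. The labels place collection 48 hours after transfection, whereas the study's methods count the 48 hours from a change of medium on the day after transfection. Controls received MISSION siRNA Universal Negative Control #1 and #2 (negative siRNA), and the others received siRNA against Yap, against Wwtr1, or against Yap and Wwtr1 together (double knockdown). For the double knockdown the titles name both targets but the siRNA field lists the Wwtr1 pair alone, and the design text speaks of myocytes where the labels speak of fibroblasts. Only 1 siRNA pair per target was used, and the pair against Wwtr1 is shared by the Wwtr1 siRNA and double knockdown groups, so loss of Wwtr1 and any other effect of that pair cannot be told apart.

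The targeted messages fell. Yap1 ranged from 2984 to 3776 normalised read counts with negative siRNA and from 532 to 625 with Yap siRNA. In the double knockdown it was 713, 739 and 1474 in replicates 1, 2 and 3. Replicate 3 thus kept the most Yap1 message of that group, and it also had the most Wwtr1 message, 818, 731 and 1056 in the same order. Wwtr1 was 524 to 637 with Wwtr1 siRNA against 2280.0 to 2565 with negative siRNA. Double knockdown replicate 3 stood apart from the others of its group over all genes, with a chi-square per gene of 120 and 124 against replicates 1 and 2, compared with 19.7 to 49.7 in the other pairs within groups. The libraries held between 33.9 and 41.1 M recovered reads, and all 10 fibroblast markers were expressed in every library. Of these 10, the double knockdown raised 4 and lowered 3 against negative siRNA, and in it 4 of 8 endothelial and 3 of 10 cardiomyocyte markers were also higher, where 17.1% of all genes tested were higher and 15.6% lower. Postn and Col3a1 were the fibroblast markers called between Yap and Wwtr1 siRNA, higher with Yap siRNA by 0.89 ± 0.17 and 0.98 ± 0.26 (log2 fold change ± SE), where 4.57% of all genes tested were higher. Against negative siRNA, Postn was higher with Yap siRNA (0.73 ± 0.17) and the endothelial marker Tek with Wwtr1 siRNA (0.71 ± 0.18), where 3.02% and 5% of all genes tested were higher. Interferon-induced genes rose in every group given targeting siRNA, and of the 18 measured, Yap siRNA raised 18, Wwtr1 siRNA 17 and the double knockdown 18. Their summed level ranged from 11258 to 18470.2 normalised read counts with negative siRNA, 42332 to 105500 after Yap siRNA, 34890.2 to 135534 after Wwtr1 siRNA and 143823 to 182969 after double knockdown, and none of the 18 was called between Yap and Wwtr1 siRNA. Of the 9 macrophage markers measured none was called in any comparison, and none was at 0 in any library, but their median log2 fold change against negative siRNA was -0.23 with Yap and -0.77 with Wwtr1 siRNA and their summed level was 21617 to 31131 with negative, 18279 to 26972 after Yap siRNA, 11073 to 19019 after Wwtr1 siRNA and 6415 to 46376 after double knockdown. Replicate 3 was the high library of the double knockdown, with 46376 against 6415 and 13243 in replicates 1 and 2. The part of these lists in the sterol results was not tested. In these bulk samples, fewer cells of a type and less RNA per cell cannot be told apart.

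The promoters of 4 members are shown because they carry, or lack, the letters bound by the factors of this pathway. Srebf2 and Msmo1 held the core of a sterol regulatory element, Hmgcs1 held paired NF-Y boxes, and Scap held neither. The letters did not sort the members by direction: Acat2, Aacs, Cyp51 and Dhcr7, all lower with Wwtr1 siRNA, also held neither, and Erlin1, which was higher, held NF-Y boxes. The sequences are the 250 bases before the start site from RefSeq, rat build GRCr8, whereas the expression table was made on build rn6. Capitals mark matches on either strand to TCACNCCA (sterol regulatory element core), CCAAT (NF-Y box) or CATTCC (TEAD motif), none of which overlap here.
Srebf2 (chr7:115543057-115543306, + strand): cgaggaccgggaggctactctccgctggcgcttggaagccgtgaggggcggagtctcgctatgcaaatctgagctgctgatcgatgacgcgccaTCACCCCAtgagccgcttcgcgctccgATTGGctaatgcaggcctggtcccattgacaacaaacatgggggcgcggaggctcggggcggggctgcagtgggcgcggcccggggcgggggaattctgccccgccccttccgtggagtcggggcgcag
Hmgcs1 (chr2:53382054-53382303, + strand): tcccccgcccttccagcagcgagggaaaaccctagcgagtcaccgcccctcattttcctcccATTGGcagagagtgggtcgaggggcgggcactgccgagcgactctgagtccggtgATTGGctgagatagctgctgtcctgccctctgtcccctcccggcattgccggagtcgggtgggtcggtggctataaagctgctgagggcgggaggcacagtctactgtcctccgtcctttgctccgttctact
Msmo1 (chr16:29746863-29747112, + strand): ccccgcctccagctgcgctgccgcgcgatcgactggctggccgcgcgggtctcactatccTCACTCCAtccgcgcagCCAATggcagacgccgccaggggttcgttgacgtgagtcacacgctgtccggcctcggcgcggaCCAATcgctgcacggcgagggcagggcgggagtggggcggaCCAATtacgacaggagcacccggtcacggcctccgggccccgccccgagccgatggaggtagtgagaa
Scap (chr8:119184188-119184437, + strand): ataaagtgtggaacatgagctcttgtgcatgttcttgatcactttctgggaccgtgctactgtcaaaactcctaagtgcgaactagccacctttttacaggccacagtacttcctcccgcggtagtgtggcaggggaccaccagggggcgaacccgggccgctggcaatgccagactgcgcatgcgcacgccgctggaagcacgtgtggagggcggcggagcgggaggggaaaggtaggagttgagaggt
In Srebf2 the sterol element core began 156 bases before the start and the NF-Y box 129 bases before it. In Msmo1 the core began 190 bases before the start, followed by NF-Y boxes at 173, 109 and 68 bases. Hmgcs1 carried NF-Y boxes at 188 and 133 bases. Windows were given for 26 of the 31 members. The CCAAT letters occurred in 19 of these 26, against 34% of all 33469 rat promoter windows of the same length. The sterol element core as spelled occurred in 2 of 26, against 3.24% of all windows. The TEAD letters, the motif of the DNA-binding partners of Yap and Wwtr1, occurred in 1 of 26 (Erlin1), against 12.1% of all windows. Of the 18 windows of members that were lower with Wwtr1 siRNA, 14 held CCAAT, and of the 8 windows of the other members 5 did.

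Wwtr1 siRNA lowered the synthesis genes along the whole route. Of the 31 members 21 were called lower and 3 higher against negative siRNA, where 8.96% of all genes tested were called in either direction (5% higher, 3.96% lower). The median log2 fold change of the members was -0.81, and that of all genes tested was 0.00. Of the 19 enzymes of the mevalonate, squalene and late sterol parts 18 were lower and none higher, and their group means lay between 32.0% and 81.3% of the negative siRNA mean, with a median of 50.9%. Libraries of the 2 groups did not overlap for 26 members (23 lower, 3 higher), whereas 32.7% of all genes tested did not overlap. Calls are at a limma adjusted p under 0.05 throughout, and 22 of these 24 held in every leave-one-out fit and every alternative setting. The exceptions, Erlin1 and Erlin2, are described with the regulators.

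**Figure D1:**
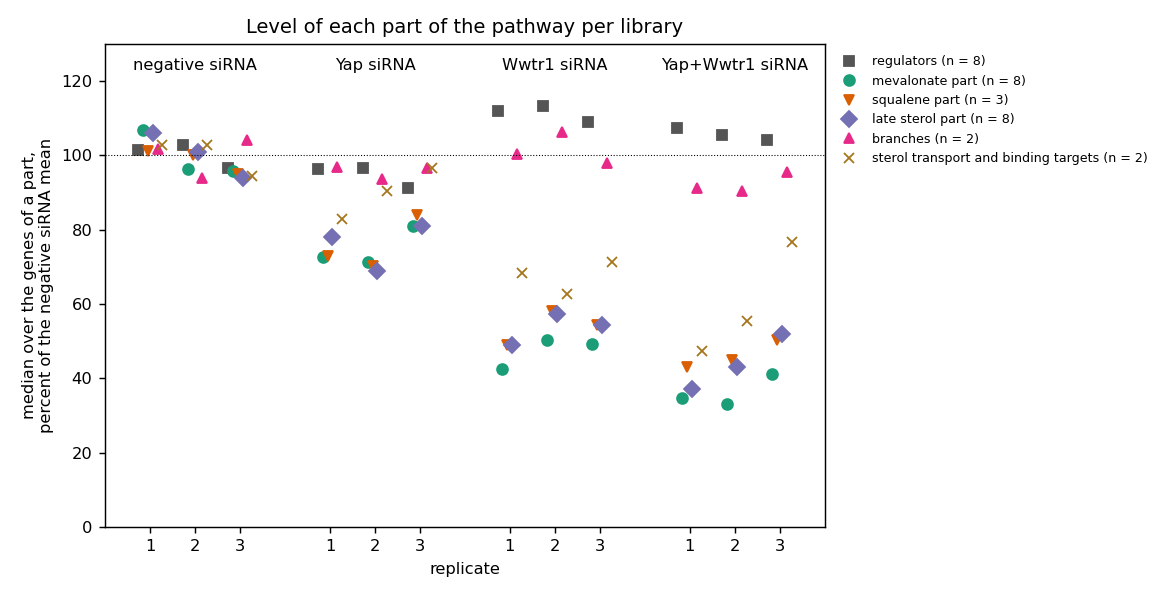
Level of each part of the pathway in every library. The x axis gives the replicates of the 4 siRNA groups, and the y axis gives the median, over the genes of a part, of the level as a percent of that gene's negative siRNA mean. The mevalonate, squalene and late sterol parts lie between 68.9 and 83.8% in the Yap siRNA libraries and between 42.5 and 58.1% in the Wwtr1 siRNA libraries, while over all libraries the regulators lie between 91.1 and 113% and the branches between 90.5 and 106%. The regulator median joins genes that moved in opposite directions. With Wwtr1 siRNA 2 of the 8 regulators were lower (Srebf2 at 53.6%, Insig1 at 59.9%) and 6 were above the negative siRNA mean, up to Scap at 129%.

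Among the regulators, Srebf2 itself fell with Wwtr1 siRNA. Its level was 8247, 8201 and 8015 normalised read counts with negative siRNA, 7059, 7598 and 7375 after Yap siRNA, 4004, 4713 and 4401 after Wwtr1 siRNA and 4328, 4967 and 5475 after double knockdown. Every library that received the Wwtr1 siRNA pair was below every library that did not, and the change with Wwtr1 siRNA was -0.90 (SE 0.09, limma adjusted p = 0.000191) on the log2 scale. Insig1, which retains Scap in the endoplasmic reticulum and is itself switched on by SREBP2, was 11009.7, 9073 and 8020.4 with negative siRNA, 8892, 7796 and 7403 after Yap siRNA, 6127, 5826 and 4876 after Wwtr1 siRNA and 4782, 4651 and 5967 after double knockdown. The Wwtr1 siRNA libraries lay below all negative siRNA libraries, and the log2 fold change came to -0.73 (SE 0.13, limma adjusted p = 0.00596). Its relative Insig2, which acts in the same way, was 213, 197 and 144 with negative, 252, 213 and 169.7 after Yap, 179, 231 and 174 after Wwtr1 siRNA and 328, 255 and 200.1 after double knockdown. These groups overlapped, and the difference with Wwtr1 siRNA was 0.08 (95% interval -0.41 to 0.58).

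Scap, the escort of SREBP2, moved opposite to its cargo. It was 3737, 3835 and 3612 with negative siRNA, 4269, 3772 and 3751 after Yap siRNA, 4842, 4746 and 4806 after Wwtr1 siRNA and 5189, 5279.6 and 4735 after double knockdown. Every library with the Wwtr1 pair was above every library without it, and Scap rose by 0.36 (SE 0.07, limma adjusted p = 0.00658). Erlin2, an endoplasmic reticulum protein that takes part in degrading sterol-regulated proteins, was 2399, 2478 and 2347 with negative, 2350.3, 2391 and 2210.0 after Yap, 3034, 3050.2 and 2794 after Wwtr1 siRNA and 3179, 3070.4 and 2952 after double knockdown. It too was higher in all libraries with the Wwtr1 pair, with a change of 0.30 (SE 0.06, limma adjusted p = 0.0134), although the call was lost without negative replicate 3, Wwtr1 replicate 1 or Wwtr1 replicate 2 (largest adjusted p 0.0659). Its partner Erlin1 ranged from 1425 to 1633 with negative to 1829.7 to 1898 with Wwtr1 siRNA, a change of 0.28 (SE 0.08, limma adjusted p = 0.0466) that was lost in 7 of 12 leave-one-out fits and 5 of 13 other settings, TMM and upper-quartile scaling among them. The proteases that release SREBP2 were not called with Wwtr1 siRNA. Mbtps1 differed by 0.10 (95% interval -0.05 to 0.25) and Mbtps2 by 0.16 (95% interval -0.10 to 0.42).

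In the mevalonate part, Hmgcs1 had the largest fall of all members with Wwtr1 siRNA. This gene encodes the cytosolic HMG-CoA synthase. It was 13291, 13066 and 11326 normalised read counts with negative siRNA, 9205, 9378 and 10634 after Yap siRNA, 3638, 4173 and 4249.6 after Wwtr1 siRNA and 3246, 3766 and 4726 after double knockdown. The Wwtr1 siRNA mean was 32.0% of the negative siRNA mean, the groups did not overlap, and the log2 fold change came to -1.64 (SE 0.12, limma adjusted p = 7.38e-05). Aacs, which makes acetoacetyl-CoA from acetoacetate, was 3033, 2478 and 2533 with negative, 1851, 1729.5 and 2043 after Yap, 1148, 1154 and 1143 after Wwtr1 siRNA and 975, 834 and 1010.0 after double knockdown. Its levels stepped down from negative to Yap to Wwtr1 siRNA without overlap, and the change with Wwtr1 siRNA was -1.22 (SE 0.10, limma adjusted p = 9.26e-05). Mvd, the decarboxylase that yields isopentenyl diphosphate, was 2349, 2235 and 2372 with negative, 1937, 1778 and 1999.5 after Yap, 978, 1144 and 1229.6 after Wwtr1 siRNA and 1045, 1046 and 1059 after double knockdown. The Wwtr1 siRNA and double knockdown libraries overlapped each other and lay below the rest, with a change of -1.06 (SE 0.09, limma adjusted p = 9.26e-05) for Wwtr1 siRNA.

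Fdps, which joins isoprene units into farnesyl diphosphate, was 17922, 16398 and 17683 with negative siRNA, 12032, 10919 and 13424 after Yap siRNA, 8213, 8851 and 8858 after Wwtr1 siRNA and 5738, 5939 and 6678 after double knockdown. All 4 groups were separate in that order, and the change with Wwtr1 siRNA was -1.0 (SE 0.08, limma adjusted p = 9.26e-05). The first enzyme, the thiolase Acat2, changed by -1.13 ± 0.12 (log2 fold change ± SE), and the isomerase Idi1 by -1.12 ± 0.15. The kinase Mvk changed less, by -0.50 ± 0.09. The kinase of the next step, Pmvk, was the enzyme of the 19 that was not called, with a difference of -0.30 (95% interval -0.57 to -0.03). For the enzymes whose Wwtr1 siRNA change is given as ± SE, here and in the squalene and late sterol parts, and for Fdps, limma adjusted p-values ranged from 9.26e-05 to 0.00687.

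The squalene part fell as a whole with Wwtr1 siRNA. Lss, which closes the rings of lanosterol, was 4028, 4376 and 3894 with negative, 3209.9, 3304 and 3483 after Yap, 2407, 2383 and 2228 after Wwtr1 siRNA and 1897, 1838 and 2066 after double knockdown. The groups were separate, and the change was -0.81 (SE 0.07, limma adjusted p = 0.000131). Fdft1, the squalene synthase, was 5896, 5824 and 5779.7 with negative, 4248, 4089.9 and 4413 after Yap, 2787, 3525 and 3339 after Wwtr1 siRNA and 2509, 2627 and 2931 after double knockdown, and changed by -0.87 (SE 0.09, limma adjusted p = 0.000311) with Wwtr1 siRNA. Only its Wwtr1 siRNA and double knockdown libraries overlapped. Sqle, the squalene epoxidase, changed by -0.99 ± 0.12.

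All 8 genes of the late sterol part were lower with Wwtr1 siRNA. Msmo1, the oxidase that starts removal of the methyl groups at the C-4 carbon, was 7095, 7809 and 7901 with negative siRNA, 4789.7, 4306 and 5229.7 after Yap siRNA, 2403, 2402 and 2686 after Wwtr1 siRNA and 1630.1, 2010.2 and 2726 after double knockdown. The Wwtr1 siRNA mean was 32.8% of the negative siRNA mean, and the change was -1.61 (SE 0.15, limma adjusted p = 0.000158). Sc5d, a sterol desaturase, was 3892, 3745 and 3490.3 with negative, 2939, 3032 and 3274 after Yap, 2059.7, 2236 and 2076 after Wwtr1 siRNA and 1712, 1721 and 1674 after double knockdown. Its 4 groups did not overlap, and the change was -0.80 (SE 0.07, limma adjusted p = 9.26e-05). Cyp51, the lanosterol demethylase, was 19570.0, 18224 and 16492 with negative, 12765, 12791 and 13835 after Yap, 8816, 10172 and 9489 after Wwtr1 siRNA and 6366, 7396 and 8418 after double knockdown, and it too stepped down through the 4 groups without overlap, by -0.93 (SE 0.10, limma adjusted p = 0.000515) with Wwtr1 siRNA. The reductase Tm7sf2, which follows Cyp51, changed by -1.42 ± 0.22. Nsdhl and Hsd17b7, which act with Msmo1 at the C-4 carbon, changed by -0.75 ± 0.12 and -0.83 ± 0.16. The isomerase Ebp changed by -0.60 ± 0.11 and the reductase Dhcr7 by -0.97 ± 0.12.

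The branch genes were called with neither single siRNA. Ggps1, which makes geranylgeranyl diphosphate for protein prenylation, differed by 0.01 (95% interval -0.18 to 0.20) with Wwtr1 siRNA. Dhdds, a subunit of the enzyme that builds dolichol, differed by 0.04 (95% interval -0.17 to 0.25), and its libraries ranged from 1055 to 1315 with negative siRNA and from 1188 to 1292 with Wwtr1 siRNA. Stard4, which moves sterol through the cytosol, was 595, 643 and 506 with negative, 497, 599 and 526 after Yap, 355, 250.02 and 309 after Wwtr1 siRNA and 294, 282 and 420.3 after double knockdown. The Wwtr1 siRNA libraries did not overlap those with negative siRNA, and the change was -0.94 (SE 0.18, limma adjusted p = 0.00687). Tmem97, a sterol-responsive protein that binds Npc1, differed by -0.28 (95% interval -0.67 to 0.11). Its libraries ranged from 2579.9 to 2813 with negative siRNA and from 2062 to 2436 with Wwtr1 siRNA, without overlap, and with the replicate block over the 9 paired libraries Tmem97 was called lower (-0.28, limma adjusted p = 0.0342).

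**Figure D2:**
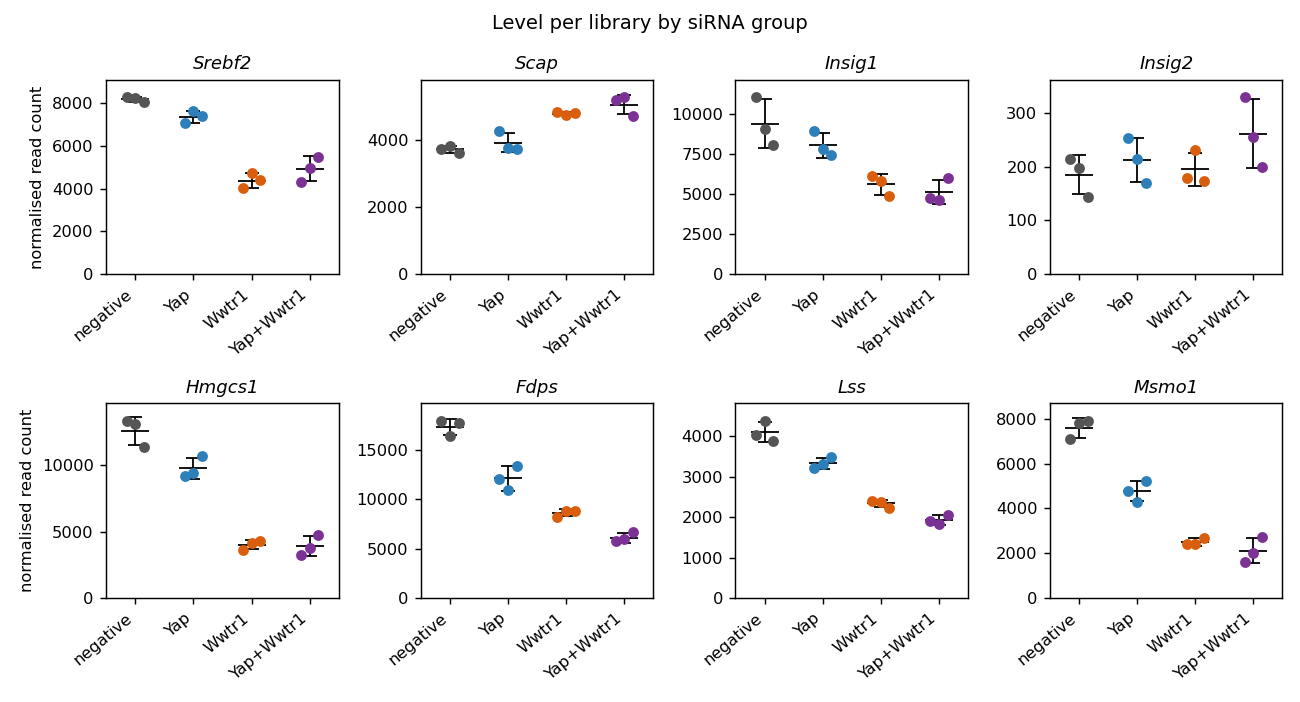
Normalised read counts of 8 members in each of the 12 libraries, with the group mean (wide bar) and SD (error bar) of 3 libraries. Srebf2, Hmgcs1, Fdps, Lss and Msmo1 are lower in all libraries with the Wwtr1 siRNA pair than in those without it, Scap is higher in them, and the Insig2 groups overlap.

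With Yap siRNA 9 of the 31 members were lower and none higher than with negative siRNA, where 4.8% of all genes tested were called in either direction (3.02% higher, 1.78% lower). All 9 were enzymes of the 3 synthesis parts, and all 9 were also called lower with Wwtr1 siRNA, a comparison that shares the negative siRNA libraries. The median log2 fold change of the members was -0.27, against 0.00 for all genes tested. Group means of the 19 enzymes lay between 62.8% and 103% of the negative siRNA mean, with a median of 73.9%. The called genes were Msmo1 (-0.67 ± 0.15, log2 fold change ± SE), Idi1 (-0.62 ± 0.15), Fdps (-0.52 ± 0.08), Aacs (-0.51 ± 0.10), Dhcr7 (-0.47 ± 0.12), Cyp51 (-0.46 ± 0.10), Fdft1 (-0.46 ± 0.09), Lss (-0.30 ± 0.07) and Sc5d (-0.27 ± 0.07), with limma adjusted p from 0.00805 to 0.0466. For Srebf2 the difference was -0.15 (95% interval -0.34 to 0.04), for Hmgcs1 -0.37 (95% interval -0.64 to -0.09) and for Insig1 -0.21 (95% interval -0.51 to 0.08). Libraries with Yap siRNA were below all negative siRNA libraries for 18 members and above them for none, where 12.6% of all genes tested were below.

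These calls with Yap siRNA lay close to the threshold. Only Fdps was called in every leave-one-out fit, and the count of called members fell to 1 without negative replicate 3, Yap replicate 1 or Yap replicate 2, to 2 without negative replicate 1 and to 3 without negative replicate 2. In the fits with these lower counts 0.935% to 2.87% of all genes tested were called. With the replicate number as a block the count was 10 over all 12 libraries and 17 over the 9 paired libraries of the negative, Yap and Wwtr1 siRNA groups, all of them lower. Without the double knockdown libraries and with no block it was 12. The called share of all genes tested rose as well, from 4.8% in the main fit to 7.36%, 16.0% and 5.69% in the same order. The members called with the block in the 9 libraries, and not without it over all 12, were the enzymes Hmgcs1, Mvd, Acat2, Sqle, Tm7sf2 and Nsdhl and the regulators Insig1 (-0.21, limma adjusted p = 0.0307) and Mbtps2 (-0.42, limma adjusted p = 0.0338).

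**Figure D3:**
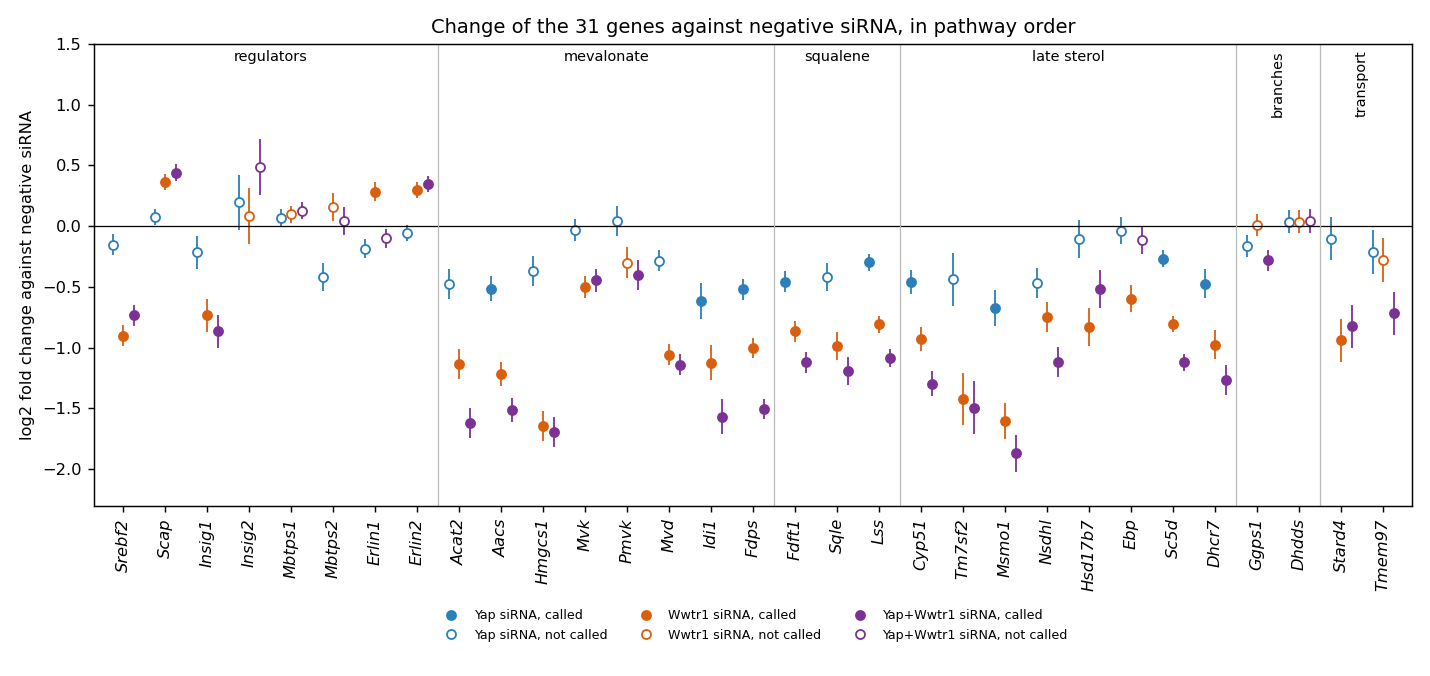
Log2 fold change against negative siRNA (y axis) of the 31 genes in pathway order (x axis) for Yap siRNA, Wwtr1 siRNA and the double knockdown. Bars are the SE from limma, and filled points are called at an adjusted p under 0.05. For Wwtr1 siRNA 18 of the 19 enzymes are filled and below 0, and for Yap siRNA 9 of 19.

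The direct comparison of Yap with Wwtr1 siRNA addressed whether the pathway differs between these siRNA treatments, and it does not use the negative siRNA libraries in the difference. Of the 31 members 19 were higher and 4 lower with Yap than with Wwtr1 siRNA, where 8.79% of all genes tested were called in either direction (4.57% higher, 4.22% lower). The median log2 fold change was 0.50, against 0.00 for all genes tested. All 19 were among the members that were lower with Wwtr1 than with negative siRNA, a comparison that shares the Wwtr1 siRNA libraries. By part, 2 of 8 regulators were higher and 4 lower, and 6 of 8 mevalonate genes, 3 of 3 squalene genes, 7 of 8 late sterol genes, 1 of 2 sterol carriers and none of the branch genes were higher. Libraries of the 2 groups did not overlap for 27 members (22 higher, 5 lower), and 31.9% of all genes tested did not overlap.

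Hmgcs1 differed the most between Yap and Wwtr1 siRNA. It was higher with Yap siRNA by 1.28 (SE 0.12, limma adjusted p = 0.000321) on the log2 scale, Tm7sf2 by 0.98 (SE 0.22, limma adjusted p = 0.0175), Msmo1 by 0.93 (SE 0.15, limma adjusted p = 0.00403) and Stard4 by 0.84 (SE 0.18, limma adjusted p = 0.0147). Srebf2 differed by 0.75 (SE 0.09, limma adjusted p = 0.000758) and Insig1 by 0.52 (SE 0.13, limma adjusted p = 0.0346). The other called enzymes differed by 0.41 (Fdft1) to 0.77 (Mvd) and comprised Acat2, Aacs, Mvk, Fdps, Sqle, Lss, Cyp51, Hsd17b7, Ebp, Sc5d and Dhcr7. The enzymes not called were Idi1 at 0.51 (95% interval 0.19 to 0.83), Pmvk at 0.34 (95% interval 0.07 to 0.61) and Nsdhl at 0.28 (95% interval 0.01 to 0.55), all in the same direction. With the replicate block over the 9 paired libraries 25 members were called (21 higher, 4 lower), where 22.6% of all genes tested were called. Idi1 (limma adjusted p = 0.00798) and Nsdhl (limma adjusted p = 0.0363) were among the 25, and Pmvk remained uncalled.

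Among the regulators that were lower with Yap than with Wwtr1 siRNA, Mbtps2 differed by -0.58 (SE 0.12, limma adjusted p = 0.012). It ranged from 259.8 to 272 with Yap siRNA, 361 to 459 with Wwtr1 siRNA and 344 to 379.7 with negative siRNA, so that the Yap siRNA libraries were the low ones. Erlin1 differed by -0.47 (SE 0.08, limma adjusted p = 0.00515), Erlin2 by -0.35 (SE 0.06, limma adjusted p = 0.00685) and Scap by -0.29 (SE 0.07, limma adjusted p = 0.0228). The regulators not called were Insig2 at 0.11 (95% interval -0.38 to 0.61) and Mbtps1 at -0.03 (95% interval -0.18 to 0.13). Of the branch and carrier genes, Dhdds at 0.00 (95% interval -0.21 to 0.21), Ggps1 at -0.17 (95% interval -0.37 to 0.02) and Tmem97 at 0.06 (95% interval -0.33 to 0.46) were not called. In leave-one-out fits the count of called members ranged from 16 (without Wwtr1 replicate 3) to 24, where 3.66% to 11.9% of all genes tested were called. Of the 23 members, 13 were called in all of these fits: Srebf2, Mbtps2, Erlin1, Erlin2, Acat2, Aacs, Hmgcs1, Mvd, Fdps, Lss, Msmo1, Ebp and Sc5d.

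**Figure D4:**
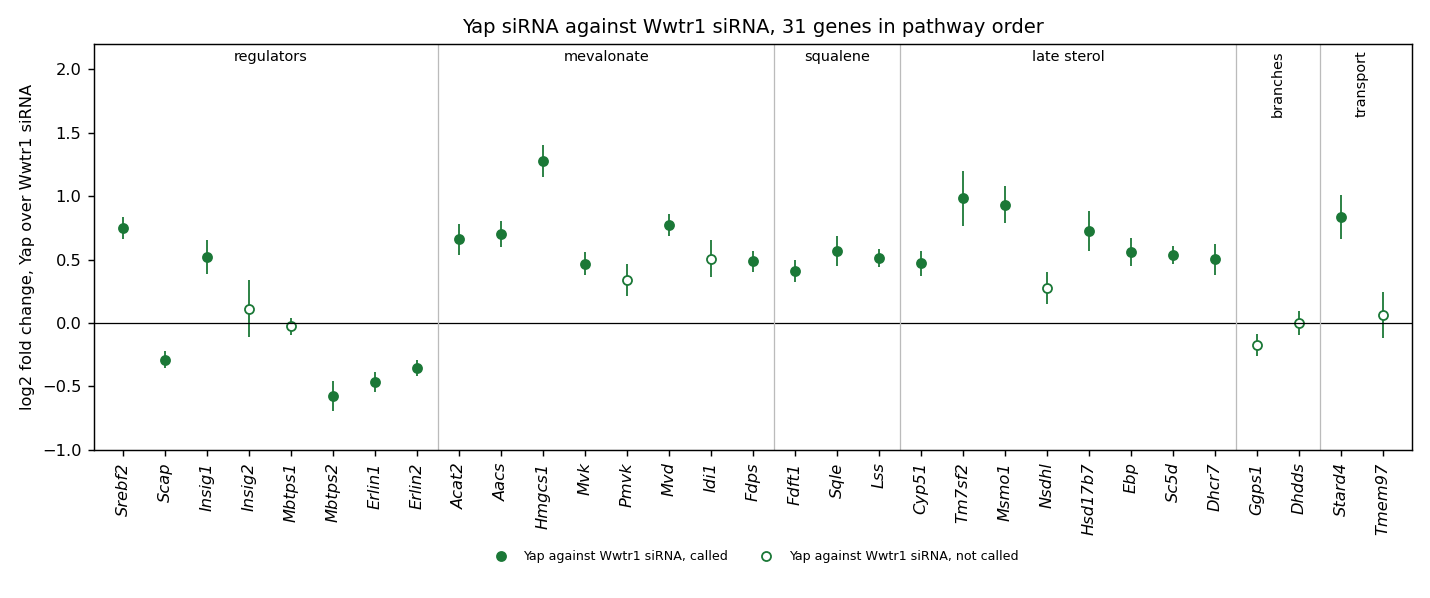
Log2 fold change of Yap over Wwtr1 siRNA (y axis) for the 31 genes in pathway order (x axis), with the SE from limma. Filled points are called at an adjusted p under 0.05, and values above 0 are higher with Yap siRNA: all 19 enzymes lie above 0 and 16 of them are filled.

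In the double knockdown 23 members were lower and 2 higher than with negative siRNA, where 32.8% of all genes tested were called in either direction (17.1% higher, 15.6% lower), and the median log2 fold change of the members was -0.86. Without replicate 3, which kept the most Yap1 and had the highest macrophage, fibroblast and endothelial marker sums of its group, 22 were lower and 3 higher. In that fit 34.2% of all genes tested were called. Of the 21 members that were lower with Wwtr1 siRNA 20 were also lower here, in comparisons that share the negative siRNA libraries. The exception was Ebp at -0.12 (95% interval -0.36 to 0.13). Its libraries were 797, 724 and 709 with negative siRNA, 506, 491 and 474 after Wwtr1 siRNA and 672, 641 and 748 after double knockdown. Ebp was thus low with Wwtr1 siRNA alone, and it was higher in the double knockdown than with Wwtr1 siRNA by 0.48 (SE 0.11, limma adjusted p = 0.0105). The 3 members lower in the double knockdown and with neither single siRNA were Pmvk (-0.40 ± 0.12), Ggps1 (-0.28 ± 0.09) and Tmem97 (-0.72 ± 0.18), with limma adjusted p from 0.00956 to 0.0294. Pmvk lost this call in 3 of 12 leave-one-out fits, without negative replicate 1 or 3 or double knockdown replicate 1 (adjusted p up to 0.0964). Ggps1 lost it in 4 of 12, without negative replicate 2 or 3 or double knockdown replicate 1 or 2 (adjusted p up to 0.0938), and in the fit on the compared groups only. Tmem97 kept it in these fits, but was also called with Wwtr1 siRNA under the paired block. Msmo1 had the largest fall, with a change of -1.87 (SE 0.15, limma adjusted p = 1.05e-05), followed by Hmgcs1 at -1.70 ± 0.12 and Acat2 at -1.62 ± 0.12. Scap and Erlin2 were the members called higher, by 0.44 ± 0.07 and 0.35 ± 0.06. Libraries did not overlap for 25 members (23 lower, 2 higher), and 44.6% of all genes tested did not overlap. In 20 of the 23 lower members replicate 3 had the highest level of the group.

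Between the double knockdown and Wwtr1 siRNA alone 8 of the 31 members were called, a share near that of all genes tested. Against Wwtr1 siRNA alone 7 members were lower and 1 higher in the double knockdown, where 19.9% of all genes tested were called (9.75% higher, 10.1% lower), and the median of the members was -0.13 against 0.01 for all genes tested. The 7 were Fdps, Acat2, Cyp51, Sc5d, Ggps1, Lss and Erlin1, of which Fdps changed by -0.50 (SE 0.08, limma adjusted p = 0.00221) and Erlin1 by -0.38 (SE 0.08, limma adjusted p = 0.00638). Hmgcs1 differed by -0.05 (95% interval -0.32 to 0.22) and Srebf2 by 0.17 (95% interval -0.02 to 0.36). The count of 8 moved with the block and with single libraries. With the replicate block it was 13 (12 lower, 1 higher), where 23.3% of all genes tested were called. Without replicate 3 of the double knockdown 15 members were lower and 2 higher, where 18.9% of all genes tested were called. Without double knockdown replicate 1 or 2 the total was 4, where 15.3% and 15.4% of all genes tested were called. It was also 4 without Wwtr1 replicate 2, where 12.3% were called, and 5 without Wwtr1 replicate 3, where 10.8% were called. These totals lay near the share of all genes tested. Against Yap siRNA alone 20 members were lower and 3 higher in the double knockdown, where 13.8% of all genes tested were called (6.83% higher, 6.96% lower), with a median of -0.65. Hmgcs1 changed by -1.33 (SE 0.12, limma adjusted p = 0.000144) and Srebf2 by -0.58 (SE 0.09, limma adjusted p = 0.00149) in that comparison.

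The interaction compares the log2 change in the double knockdown with the added changes of Yap siRNA and of Wwtr1 siRNA. It was called for none of the 31 members by limma, edgeR or DESeq2, where limma called 1.03% of all genes tested. At an unadjusted limma p under 0.05 there were 2 members, Srebf2 at 0.32 (95% interval 0.05 to 0.59) and Ebp at 0.52 (95% interval 0.18 to 0.86). The estimate was above 0, that is a double knockdown level above the added changes, for 23 members and below 0 for 8.

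Some genes beside the 31 supply the route with carbon or electrons. Acly, which makes cytosolic acetyl-CoA from citrate, was lower than with negative siRNA in all 3 other groups, with log2 fold changes of -0.35 (SE 0.07, limma adjusted p = 0.0248) for Yap siRNA, -0.49 (SE 0.07, limma adjusted p = 0.0023) for Wwtr1 siRNA and -0.67 (SE 0.07, limma adjusted p = 6.92e-05) for the double knockdown. Por, the electron donor of Cyp51 and Sqle, was higher in all 3, by 0.31 (SE 0.07, limma adjusted p = 0.0249), 0.25 (SE 0.07, limma adjusted p = 0.0369) and 0.78 (SE 0.07, limma adjusted p = 1.54e-05) in the same order. Neither was called between Yap and Wwtr1 siRNA, where Acly differed by 0.14 (95% interval -0.02 to 0.30) and Por by 0.06 (95% interval -0.08 to 0.21). Acss2, which makes acetyl-CoA from acetate, was higher with Yap than with Wwtr1 siRNA by 0.79 (SE 0.16, limma adjusted p = 0.0108). Against negative siRNA it differed by 0.32 (95% interval -0.03 to 0.66) with Yap siRNA and by -0.47 (95% interval -0.82 to -0.13) with Wwtr1 siRNA, and it was higher in the double knockdown by 0.52 (SE 0.16, limma adjusted p = 0.0242).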

How the data were processed

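RNA was sequenced from 12 cultures in 4 groups of 3. Per the study's methods the whole procedure was run again with separate litters for each replicate, so that each round of litters would have supplied all groups. Per the labels and the study's methods, the authors trimmed reads with Trim Galore 0.6.5, aligned them with HISAT2 to rat build rn6, assembled transcripts with StringTie and tested groups with DESeq2. The deposited signal values are normalised read counts, which behaved as whole counts divided by 1 factor per library. The deposited log2 fold changes and p-values of the authors' own comparisons were not used. Whether counting used strand was not given in the sources used here.

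Values were tested as log2(value + 1) with limma 3.58.1 in R 4.3.3, 1 fit over all 12 libraries without covariates and with a mean-variance trend. Genes with a mean of at least 10 were tested, and Benjamini-Hochberg adjusted p-values, two-sided, were taken over all 11871. Fold changes on this scale understate changes of low genes. Division by 1 step per library turned 100% of the 147252 values into whole numbers within 0.01, and these recovered reads served only for scaling and count-test alternatives (edgeR 4.0.16, DESeq2 1.42.0). For 6 of the 12 libraries a separate automatic search of the steps did not find the same step. Same-numbered libraries of the negative, Yap and Wwtr1 siRNA groups deviated together (9 correlations, 0.10 to 0.28) and were taken as paired, although the labels do not say that a number marks a round of litters. Those with the double knockdown ran from -0.13 to 0.18. Steps were tested on simulated data. Alternatives were a pseudocount of 0.1 or 10, a mean of at least 100 or no filter, scaling by TMM or upper quartile, count tests, fewer libraries, a replicate block and no trend. The members, the lists, the motifs and the tests were chosen with earlier results of these data known. All 31 members are accounted for by part, with per-library values for those of smallest adjusted p in each part and for Srebf2, Scap, Insig1 and Insig2. List genes are named where called between Yap and Wwtr1 siRNA, and Acly and Por were named after their values were seen. Some genes of these lists are not reported here.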

Additional observations from a re-analysis of the deposited data

How the results depend on the processing

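The median log2 fold change of the 31 members kept its sign in each comparison under all alternatives run, ranging from -0.32 to -0.23 for Yap, -0.84 to -0.78 for Wwtr1 and -1.0 to -0.80 for the double knockdown against negative siRNA, 0.43 to 0.55 for Yap against Wwtr1 siRNA, -0.76 to -0.60 and -0.31 to -0.08 for the double knockdown against Yap and Wwtr1 siRNA, and 0.04 to 0.19 for the interaction. Counts of members called with Yap against negative siRNA moved from 9 to 14 with DESeq2, 17 with the replicate block in the 9 paired libraries and 3 without a mean-variance trend, and ranged from 1 to 13 in leave-one-out fits. The called share of all genes tested moved from 4.8% to 8.53%, 16.0% and 2.48% in the same order, and ranged from 0.935% to 6.44% in leave-one-out fits. Counts for the double knockdown against Wwtr1 siRNA moved from 8 to 4 in a fit on the compared groups only and 13 with the replicate block, and ranged from 4 to 17 in leave-one-out fits. Among all genes tested the called share was 19.9% in the main fit, 14.0% and 23.3% in those alternatives and 10.8% to 19.7% in leave-one-out fits. Same-numbered libraries did not all deviate together where the double knockdown was involved, although the methods describe rounds of litters for all groups, and the cause of these shifts was not tested. Leave-one-out counts were 22 to 24 for Wwtr1 and 22 to 25 for the double knockdown against negative siRNA, 16 to 24 for Yap against Wwtr1 siRNA, 19 to 23 for the double knockdown against Yap siRNA and 0 for the interaction. The block moved no other count of members by over 1.5 times. The setting without the double knockdown libraries and with no block was chosen after seeing the data. No member had its sign reversed where it was called. The Scap difference between Yap and Wwtr1 siRNA lost its call in 5 of 12 leave-one-out fits. Those of Insig1, Tm7sf2 and Dhcr7 lost it in 4, of Hsd17b7 and Cyp51 in 3, of Stard4 and Fdft1 in 2, and of Sqle and Mvk in 1. Insig1 also lost this call without a mean-variance trend.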

Other observations

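Genes that move, store, sense or further convert sterols were measured beside the synthesis genes. Of 13 genes of sterol transport and esterification, 1 was higher and 2 were lower with Yap than with Wwtr1 siRNA, where 8.79% of all genes tested were called. Npc1, which exports cholesterol from lysosomes, was 2529, 2475 and 2431 normalised read counts with negative, 2084, 2172 and 2131 after Yap, 2742, 2729 and 2618 after Wwtr1 siRNA and 3181, 2982 and 3091 after double knockdown. All 4 groups were separate, with Yap siRNA the lowest and the double knockdown the highest, and the change of Yap against Wwtr1 siRNA was -0.34 (SE 0.06, limma adjusted p = 0.00463) on the log2 scale. Cav1, the coat protein of cholesterol-rich caveolae, changed by -0.65 (SE 0.12, limma adjusted p = 0.00735) and the sterol transfer protein Gramd1a by 0.30 (SE 0.08, limma adjusted p = 0.0458) in the same comparison. In the same comparison 1 of 11 genes of sterol sensing and degradation and 1 of 16 of the isoprenoid branches were called, shares near that of all genes. The first was the ubiquitin ligase Marchf6 at -0.34 (SE 0.09, limma adjusted p = 0.0372). The other was Zmpste24, the protease that trims prenylated prelamin, at 0.52 (SE 0.12, limma adjusted p = 0.0255).

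Of 6 oxysterol enzymes measured none was called with Yap or Wwtr1 siRNA, and 3 were higher in the double knockdown than with negative siRNA, where 32.8% of all genes tested were called (17.1% higher), with a median log2 fold change of 1.06 for the list against 0.00 for all genes tested. Across the 12 libraries, the genes outside the 31 whose log2 profile was most like that of Hmgcs1, among 10101 genes with a mean of at least 100, were Snx5 (Pearson r = 0.987), Get1 (0.983), Plpp2 (0.979), Add1 (0.978) and Nipsnap3b (0.976). The points are 12 libraries in 4 groups that share the siRNA contrasts, so these values describe likeness of pattern and carry no test. Of the 50 genes most like Hmgcs1, 14 were members, among them Mvd (0.980) and Srebf2 (0.976), whereas Scap stood at -0.957.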
